A study of Mus musculus with 9 samples.

Results

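Prostaglandin synthesis and receptor genes were followed in the mouse uterus as 10 genes named by symbol: Ptgs1, Ptgs2, Ptges, Ptgis, Ptgds, Hpgd, Ptger2, Ptger3, Ptger4 and Ptgfr. All 10 were among the 18094 genes of the deposited count table, and all 10 were among the 15186 genes with enough counts to be tested. Total RNA of whole uteri from 9 female mice, killed at 13 weeks of age, was sequenced. The 3 tamoxifen+primidone mice had been fed tamoxifen, which acts on estrogen receptors as agonist or antagonist depending on the tissue, at 1 mg/kg on days 1 to 5 after birth. From week 10 they were injected intraperitoneally with primidone, an anticonvulsant, at 2 mg/kg per day for 3 weeks. The 3 tamoxifen mice had the same tamoxifen feeding and then the primidone vehicle. The 3 control mice were fed the oil and milk mixture without tamoxifen and were later injected with the vehicle, so that no group lacked the feeding or the injections. Neonatal tamoxifen is a mouse model of adenomyosis, the growth of endometrial tissue into the uterine muscle. Not given in the sources used here: strain, estrous stage at collection and the extent of lesions in each uterus.

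Prostaglandins are made from arachidonic acid, which phospholipases free from membranes. The cyclooxygenases encoded by Ptgs1 and Ptgs2 turn it into a shared precursor, and a terminal synthase then fixes the product. Prostaglandins of the E and F types contract or relax uterine muscle depending on the receptor they meet, and in the uterus they are known for their parts in implantation, menstrual pain and labor.

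Of the 10 genes, Ptger4, which encodes EP4, a receptor for prostaglandin E2 that raises cyclic AMP, was the one that passed the edgeR test. Its level fell to 70.7 ± 5.93 CPM (counts scaled to library size) in tamoxifen+primidone uteri, against 110.6 ± 9.39 CPM in control uteri (SD, n = 3 each), 0.639 times the control level (edgeR adjusted p = 0.0137). Tamoxifen uteri had 78.4 ± 9.96 CPM of Ptger4, 0.708 times the control level (edgeR adjusted p = 0.0536). Between tamoxifen+primidone and tamoxifen uteri no Ptger4 difference was detected (edgeR adjusted p = 0.605). Ptges and Ptgis, the synthases that make prostaglandin E2 and prostacyclin, lay on opposite sides of the control level in both tamoxifen-fed groups, Ptges above it and Ptgis below it, but neither passed the edgeR test. Ptgs2, the inducible cyclooxygenase, had a mean more than 3-fold above control in both of these groups with a wide spread between mice, and did not pass by edgeR. The other 6 genes had adjusted p-values of 0.388 or more in every comparison. Thus 1 of the 10 genes passed by edgeR in tamoxifen+primidone against control, where 5.35% of all tested genes passed. There 4 of the 10 had an unadjusted p under 0.05, where 23.2% of all tested genes did. DESeq2 called 3 of the 10 there and 12% of the 15630 genes to which it gave an adjusted p. In tamoxifen against control 0 of the 10 passed by edgeR, where 1.53% of all tested genes did. There 4 of the 10 had an unadjusted p under 0.05, where 17.8% of all tested genes did. DESeq2 called 3 of the 10 there and 7.11% of the 15630 genes to which it gave an adjusted p. In tamoxifen+primidone against tamoxifen 0 of the 10 passed by edgeR, where 0.0132% of all tested genes did. None of them had an unadjusted p under 0.05 there, where 13.8% of all tested genes did. DESeq2 called 0 of the 10 there and 3.78% of the 15279 genes to which it gave an adjusted p.

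**Figure D1:**
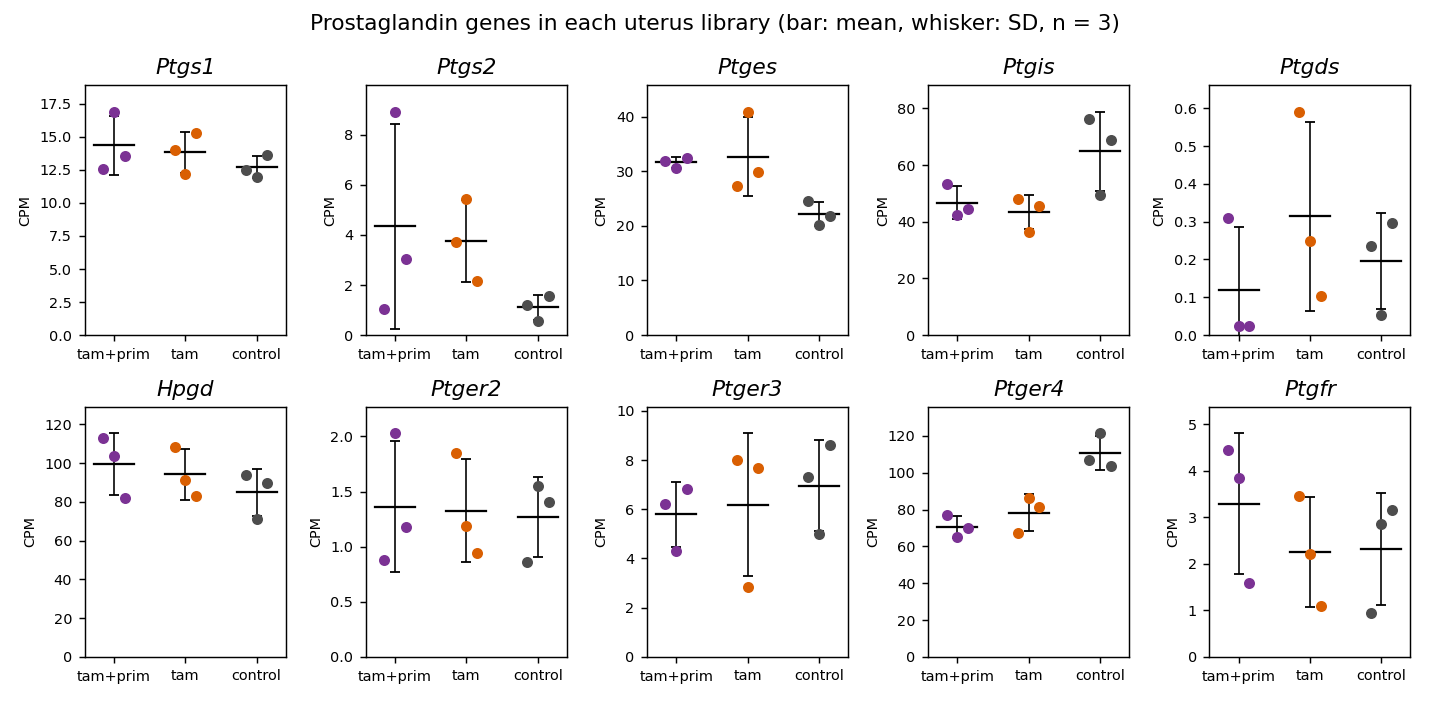
Level of each of the 10 genes in CPM (vertical axes, linear, each from 0) in the tamoxifen+primidone, tamoxifen and control libraries. Points are single libraries, bars are means and whiskers SDs of 3 libraries; Ptger4 lies between 65.2 and 86.4 CPM in the 6 libraries of tamoxifen-fed mice and between 103.8 and 121.3 CPM in the 3 control libraries.

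The libraries held 36393120 to 39958443 counts. Markers of the uterus were detected in each of them, with Esr1, the estrogen receptor, at 276.4 to 365 CPM and Pgr, the progesterone receptor, at 225.3 to 307 CPM. Marker sums were not level across the groups. Summed CPM of 8 smooth muscle genes ran from 5667 to 7036 in tamoxifen+primidone, from 6025 to 7312 in tamoxifen and from 7354 to 11800 in control libraries. The sums of 8 adipocyte genes ran from 111.5 to 518.1 CPM in tamoxifen+primidone, from 54.89 to 430.5 CPM in tamoxifen and from 40.06 to 52.55 CPM in control libraries. Of 8 ovary and oviduct genes 7 were measured, and their sums ran from 5.877 to 10.09 CPM in tamoxifen+primidone, from 66.69 to 273.4 CPM in tamoxifen and from 17.95 to 48.27 CPM in control libraries. A list of 10 liver genes summed to 229.3 to 257.9 CPM in tamoxifen+primidone, 109.6 to 235.6 CPM in tamoxifen and 65.56 to 83.86 CPM in control libraries. Since whole uteri were used, fewer cells of a type and less RNA per cell cannot be told apart in any value below.

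The levels per gene length (FPKM, counts scaled to library size and gene length) spanned a wide range. Hpgd, which encodes the dehydrogenase that begins prostaglandin breakdown, was the highest at 60.0 ± 10.4 FPKM in tamoxifen+primidone, 53.9 ± 7.09 FPKM in tamoxifen and 48.4 ± 6.33 FPKM in control uteri. Ptgis and Ptger4 followed. In control uteri they stood at 32.1 ± 6.56 and 32.7 ± 3.24 FPKM with overlapping ranges, and the ranges of this pair overlapped in the other groups too. Ptges was next in all groups, at 8.97 ± 0.264, 8.83 ± 2.05 and 5.97 ± 0.541 FPKM in tamoxifen+primidone, tamoxifen and control uteri. Ptgs1 and Ptger3 had overlapping ranges near 3 FPKM in each group. Ptgfr, Ptger2, Ptgs2 and Ptgds averaged 1.01 FPKM or less in every group, and their order differed between groups.

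**Figure D2:**
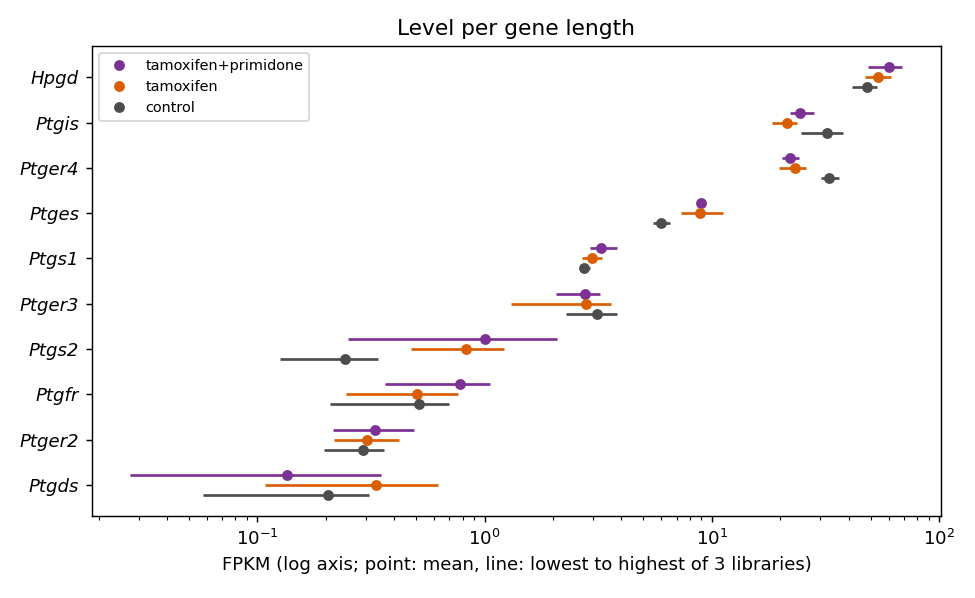
Level of the 10 genes per gene length (horizontal axis, FPKM, log scale), with a point for the mean and a line from the lowest to the highest of 3 libraries in tamoxifen+primidone, tamoxifen and control uteri. Hpgd, Ptgis and Ptger4 lie between 18.3 and 69.0 FPKM and Ptgds between 0.0276 and 0.62 FPKM.

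Start-site windows were read for the members with an unadjusted p under 0.05 in a comparison, to show what lies in front of the genes with the smallest p-values. They come from RefSeq on build GRCm38.p6, run from 250 bases before to 50 bases after the gene start, and are printed 5′ to 3′ on the strand of the gene. Entries were matched by symbol for 9 of the 10 genes, all but Ptgis. Capitals mark matches, on either strand, to the GC box, the CCAAT box, the E-box and the core of the cyclic AMP response element, whose letters follow the sequences.
Ptger4: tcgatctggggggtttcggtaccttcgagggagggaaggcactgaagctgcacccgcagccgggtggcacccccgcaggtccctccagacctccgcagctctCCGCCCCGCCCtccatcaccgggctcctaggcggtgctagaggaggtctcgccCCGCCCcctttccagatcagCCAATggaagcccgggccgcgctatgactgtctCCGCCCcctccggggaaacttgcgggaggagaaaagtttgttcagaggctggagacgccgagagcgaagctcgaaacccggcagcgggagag
Ptges: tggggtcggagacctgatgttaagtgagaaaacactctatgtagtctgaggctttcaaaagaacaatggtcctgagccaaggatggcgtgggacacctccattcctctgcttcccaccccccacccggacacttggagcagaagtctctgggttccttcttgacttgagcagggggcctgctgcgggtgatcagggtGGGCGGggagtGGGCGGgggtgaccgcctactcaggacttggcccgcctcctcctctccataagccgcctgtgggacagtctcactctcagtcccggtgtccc
Ptgs2: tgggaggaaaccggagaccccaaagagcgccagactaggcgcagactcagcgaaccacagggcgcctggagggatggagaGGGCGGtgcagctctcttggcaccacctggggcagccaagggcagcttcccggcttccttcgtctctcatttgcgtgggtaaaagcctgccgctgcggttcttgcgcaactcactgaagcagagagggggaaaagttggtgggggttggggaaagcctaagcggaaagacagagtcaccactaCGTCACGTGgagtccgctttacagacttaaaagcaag
The Ptger4 window lies at chr15:5244138-5244437 on the minus strand and holds 67.0% G or C, against a median of 52.7% over all 32851 windows. It has 4 GC box matches, of which the first pair share a base, and 1 CCAAT match 75 to 71 bases before the start. The Ptges window, at chr2:30903248-30903547 on the minus strand, has 2 GC box matches. The Ptgs2 window, at chr1:150099781-150100080 on the plus strand, has 1 GC box match and, after the start, a TGACG match on the opposite strand that overlaps an E-box match. Such letters are common. The GC box was searched as GGGCGG, which 35.7% of all windows hold on one strand or the other. The CCAAT box was searched as its own letters, held by 37.4% of all windows, and the E-box as CACGTG, held by 7.15%. The core of the cyclic AMP response element was searched as TGACG, held by 20.8% of windows. Its full form TGACGTCA, held by 1.79% of all windows, had no match in these 3, nor did the TATA box, held by 13.6%, searched as TATAAA. The same was true of the D-box (TTATGTAA), held by 0.938% of all windows, and of the site bound by nuclear receptors as single units, searched as AGGTCA and held by 16.3%. These windows are of an earlier build than the one behind the counts, and a match describes letters only. Positions count from the annotated gene start, and where transcription begins in these uteri was not tested.

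The first step of synthesis was read from the cyclooxygenases. Ptgs1, the constitutive enzyme, had 12.6, 16.9 and 13.6 CPM in the tamoxifen+primidone libraries, 14.0, 12.2 and 15.3 CPM in the tamoxifen libraries and 12.5, 12.0 and 13.7 CPM in the control libraries. The 3 groups overlapped, and the log2 fold changes against control were 0.17 ± 0.15 for tamoxifen+primidone and 0.12 ± 0.15 for tamoxifen (± SE; edgeR adjusted p = 0.512 and 0.725). The 95% intervals reached from −0.15 to 0.498 for tamoxifen+primidone and from −0.205 to 0.443 for tamoxifen.

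Ptgs2, the cyclooxygenase induced by inflammation and hormones, had 1.06, 8.92 and 3.04 CPM in tamoxifen+primidone libraries, 3.70, 5.43 and 2.15 CPM in tamoxifen libraries and 1.20, 0.562 and 1.57 CPM in control libraries. These CPM rest on 41, 352 and 121 counts in tamoxifen+primidone, 144, 197 and 84 counts in tamoxifen and 46, 21 and 58 counts in control libraries. All tamoxifen libraries lay above all control libraries, whereas the first tamoxifen+primidone library lay within the control range and the second was the highest of all 9. The log2 fold change was 1.96 ± 0.73 for tamoxifen+primidone against control (3.90-fold, edgeR adjusted p = 0.146) and 1.76 ± 0.73 for tamoxifen against control (3.38-fold, adjusted p = 0.249). Neither passed by edgeR, while DESeq2 called the first (adjusted p = 0.0222) and not the second (adjusted p = 0.0674). Ptgs2 varied widely between mice of a group, with a biological coefficient of variation of 0.5794 against 0.2026 for the common fit. Without the second tamoxifen+primidone library the log2 fold change against control was 0.88 (edgeR adjusted p = 0.426).

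That second library also stood high for macrophage, myeloid and neutrophil genes and for adipocyte genes. All 8 macrophage and myeloid markers were measured, and their summed CPM were 960.6, 1723 and 1036 in tamoxifen+primidone, 1710, 1539 and 1343 in tamoxifen and 1214, 1117 and 1189 in control libraries. Of 8 neutrophil markers 7 were measured, and they summed to 37.1, 75.3 and 31.9 CPM in tamoxifen+primidone, 65.0, 66.0 and 60.0 CPM in tamoxifen and 43.9, 15.8 and 34.6 CPM in control libraries. No measured marker of either list was at 0 throughout. Among the tamoxifen+primidone libraries the myeloid and neutrophil sums, like Ptgs2, were highest in the second. So was the adipocyte sum (116.8, 518.1 and 111.5 CPM), but not that of 7 measured mast cell markers (28.4, 20.1 and 14.1 CPM). In tamoxifen, Ptgs2 and the neutrophil sum were highest in the second library and the myeloid sum in the first. In control, Ptgs2 was highest in the third library and the myeloid and neutrophil sums in the first. The part of these cells in the Ptgs2 values was not tested.

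Among the terminal synthases, Ptges makes prostaglandin E2 downstream of the inducible cyclooxygenase. Ptges had 31.9, 30.5 and 32.4 CPM in tamoxifen+primidone libraries, 27.3, 40.9 and 29.8 CPM in tamoxifen libraries and 24.5, 20.2 and 21.9 CPM in control libraries. Each library of a tamoxifen-fed mouse exceeded each control library. The log2 fold change was 0.51 ± 0.15 for tamoxifen+primidone against control (1.42-fold, edgeR adjusted p = 0.0698) and 0.56 ± 0.15 for tamoxifen against control (1.47-fold, adjusted p = 0.0905). DESeq2 gave adjusted p = 0.0223 and 0.0149 for the same comparisons, past the threshold of 0.05 that the edgeR values missed. Tamoxifen+primidone and tamoxifen uteri overlapped, at a log2 fold change of −0.05 ± 0.15 (95% interval −0.368 to 0.274, edgeR adjusted p = 0.921).

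Ptgis makes prostacyclin, a product of vessel wall and smooth muscle. Its CPM were 53.3, 42.2 and 44.5 in tamoxifen+primidone libraries, 48.0, 36.5 and 45.5 in tamoxifen libraries and 76.3, 49.4 and 68.9 in control libraries. The tamoxifen libraries all lay below the control libraries, while the first tamoxifen+primidone library lay above the lowest control library, the second. The log2 fold change was −0.48 ± 0.17 for tamoxifen+primidone against control (edgeR adjusted p = 0.125) and −0.58 ± 0.17 for tamoxifen against control (adjusted p = 0.114). Neither passed by edgeR; DESeq2 gave adjusted p = 0.0624 and, past the threshold, 0.0251 for the same comparisons. All 8 smooth muscle markers were measured, and none was at 0. Their summed CPM were 7036, 5667 and 6708 in tamoxifen+primidone, 6421, 6025 and 7312 in tamoxifen and 11130, 7354 and 11800 in control libraries, so that the second control library was the lowest of its group for Ptgis and for this sum. The summed CPM of 8 endothelial markers overlapped between groups, at 459.3 to 605.8 in tamoxifen+primidone, 450.4 to 540 in tamoxifen and 516.2 to 602.3 in control libraries. The part of muscle and vessel content in the Ptgis values was not tested.

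Ptgds, which makes prostaglandin D2, was close to the lower limit of measurement. It had 12, 1 and 1 counts in tamoxifen+primidone libraries, 23, 9 and 4 counts in tamoxifen libraries and 9, 2 and 11 counts in control libraries. The groups overlapped, and at this depth no difference was detectable, with a 95% interval of −3.09 to 1.71 on the log2 scale for tamoxifen+primidone against control and −1.55 to 2.91 for tamoxifen against control.

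Breakdown of prostaglandins was read from Hpgd, the most abundant of the 10 per length. Hpgd had 113, 103.5 and 82.2 CPM in tamoxifen+primidone libraries, 108.3, 91.4 and 82.9 CPM in tamoxifen libraries and 93.8, 71.2 and 89.8 CPM in control libraries. The third tamoxifen+primidone library and the second and the third tamoxifen libraries lay within the control range. The log2 fold change against control was 0.23 ± 0.15 for tamoxifen+primidone and 0.15 ± 0.15 for tamoxifen (edgeR adjusted p = 0.388 and 0.649), with upper 95% bounds of 0.56 and 0.48.

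The receptors were led by Ptger4, whose product EP4 signals through cyclic AMP. Ptger4 had 77.0, 65.2 and 70.0 CPM in tamoxifen+primidone libraries, 67.2, 86.4 and 81.5 CPM in tamoxifen libraries and 106.7, 121.3 and 103.8 CPM in control libraries. Both tamoxifen-fed groups lay wholly below control, and they overlapped each other. Ptger4 fell in tamoxifen+primidone against control uteri (log2 fold change −0.65 ± 0.11, 95% interval −0.891 to −0.4, edgeR adjusted p = 0.0137). It was 160th of the 15186 genes in that comparison when ordered by p. In tamoxifen against control uteri its log2 fold change was −0.50 ± 0.11 (0.708 times control, edgeR adjusted p = 0.0536), just short of the threshold, and DESeq2 gave adjusted p = 0.00394. The difference between tamoxifen+primidone and tamoxifen uteri was −0.15 ± 0.11 (95% interval −0.393 to 0.0966, edgeR adjusted p = 0.605). In the test of any difference among the 3 groups Ptger4 was again the one of the 10 genes to pass (edgeR F test adjusted p = 0.0248; 3.84% of all tested genes passed). Its spread within groups was small, with a biological coefficient of variation of 0.1118. Without the first control library Ptger4 no longer passed in tamoxifen+primidone against control (log2 fold change −0.67, edgeR adjusted p = 0.0517). Like Ptger4, the sum of the 8 smooth muscle markers lay wholly below control in both tamoxifen-fed groups, at 5667 to 7036 CPM in tamoxifen+primidone, 6025 to 7312 CPM in tamoxifen and 7354 to 11800 CPM in control libraries. Within the control group the order differed, since the second library had the highest Ptger4 (121.3 CPM) and the lowest muscle sum (7354 CPM). The liver and adipocyte sums given above lay wholly above control in both tamoxifen-fed groups. All 10 markers of uterine epithelium were measured, and their summed CPM ran from 3230 to 3940 in tamoxifen+primidone, 4600 to 4825 in tamoxifen and 4263 to 4670 in control libraries. Those of 8 stromal genes ran from 8845 to 10640 in tamoxifen+primidone, 10720 to 11030 in tamoxifen and 9331 to 12030 in control libraries. The part of muscle and other cell content in the Ptger4 values was not tested.

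Ptger3 encodes EP3, which lowers cyclic AMP and contracts uterine muscle. Its CPM were 6.23, 4.31 and 6.84 in tamoxifen+primidone libraries, 8.01, 2.84 and 7.69 in tamoxifen libraries and 7.29, 4.98 and 8.61 in control libraries. The second library was the lowest in all 3 groups, although the labels do not pair the mice by number, and the groups overlapped. Ptger2 encodes EP2, a further receptor that raises cyclic AMP. It had 0.879, 2.03 and 1.18 CPM in tamoxifen+primidone libraries, 1.85, 1.19 and 0.946 CPM in tamoxifen libraries and 0.862, 1.55 and 1.40 CPM in control libraries, again overlapping. Ptgfr encodes FP, the receptor through which prostaglandin F2α contracts the uterus. It had 4.45, 3.85 and 1.59 CPM in tamoxifen+primidone libraries, 3.47, 2.21 and 1.10 CPM in tamoxifen libraries and 0.941, 2.86 and 3.16 CPM in control libraries. Log2 fold changes against control lay between −0.26 and 0.51 for these 3 receptors, and edgeR adjusted p-values between 0.634 and 0.98. The intervals were wide, at −0.741 to 1.75 for Ptgfr and −0.875 to 1.07 for Ptger2 in tamoxifen+primidone against control.

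**Figure D3:**
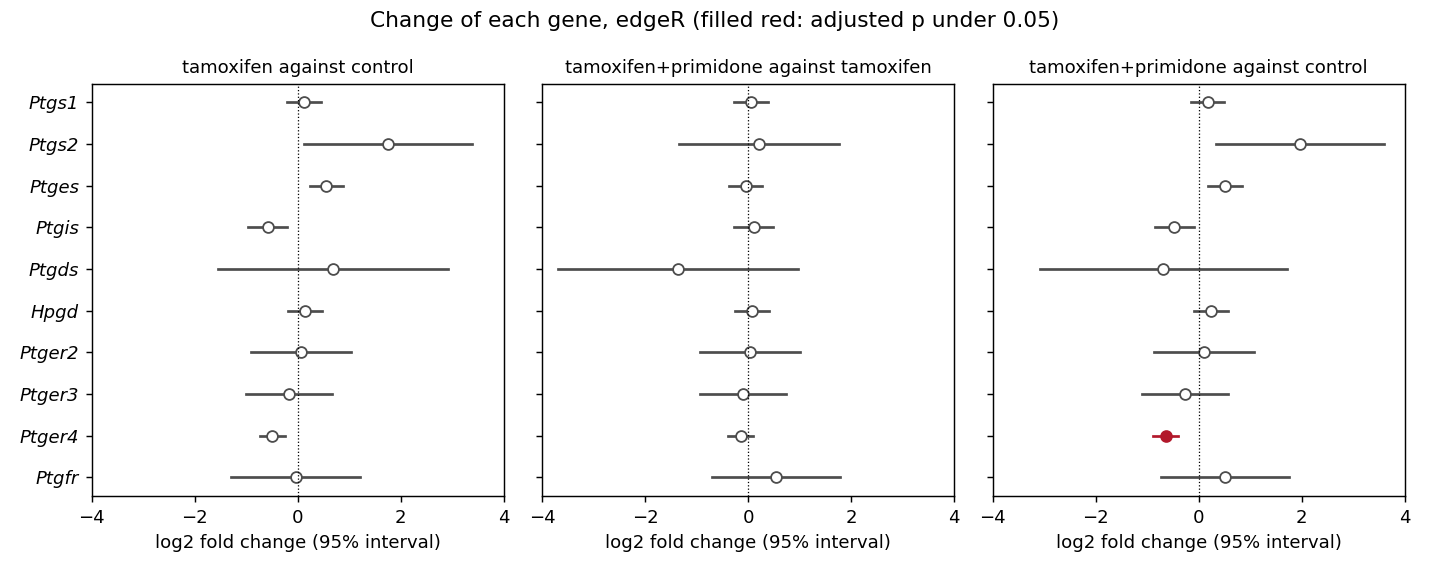
Log2 fold change of each of the 10 genes (horizontal axes, with 95% intervals) in 3 panels, tamoxifen against control at the left, tamoxifen+primidone against tamoxifen in the middle, and at the right tamoxifen+primidone against control; filled red marks an edgeR adjusted p under 0.05. Only Ptger4 in tamoxifen+primidone against control is filled, at −0.65, and the Ptgs2 and Ptgds intervals are the widest.

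The ranges of the 3 libraries of each group were also compared. In tamoxifen+primidone against control they did not overlap for 2 of the 10 genes, Ptges above and Ptger4 below, where 29.1% of all tested genes had non-overlapping ranges. In tamoxifen against control they did not overlap for 4 of the 10, Ptgs2 and Ptges above and Ptgis and Ptger4 below, where 26.1% of all tested genes had non-overlapping ranges. In tamoxifen+primidone against tamoxifen they overlapped for each of the 10, where 16.6% of all tested genes had non-overlapping ranges. The median log2 fold change of the 10 genes was 0.14, 0.09 and 0.05 in tamoxifen+primidone against control, tamoxifen against control and tamoxifen+primidone against tamoxifen, with 6 positive and 4 negative in each. The medians of all tested genes were 0.0121, 0.000184 and 0.0151. Both comparisons with control use the same 3 control libraries, so their likeness is no separate evidence.

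Ratios between pairs of genes within a library do not depend on how libraries are scaled. The log2 ratio of Ptgis to Ptges, which weighs prostacyclin against prostaglandin E2 synthase RNA, was 1.62, 1.35 and 1.33 in tamoxifen+primidone libraries, 1.69, 0.715 and 1.49 in tamoxifen libraries and 2.52, 2.17 and 2.53 in control libraries. It lay below control in all 6 libraries of tamoxifen-fed mice, by means of −0.972 in tamoxifen+primidone and −1.11 in tamoxifen, and each of these differences had the smallest p that 3 against 3 mice allow (two-sided exact permutation p = 0.1). The log2 ratio of Ptgs2 to Ptgs1 averaged −2.18 ± 1.33 in tamoxifen+primidone, −1.94 ± 0.831 in tamoxifen and −3.61 ± 0.683 in control libraries. Tamoxifen libraries did not overlap control (difference 1.67, exact permutation p = 0.1), while tamoxifen+primidone libraries did (difference 1.42, exact permutation p = 0.3). The ratio of Ptges to Hpgd, synthesis against breakdown, averaged −2.73 ± 0.263 in tamoxifen+primidone, −2.63 ± 0.417 in tamoxifen and −3.01 ± 0.11 in control libraries, with overlap. The ratios among the receptors Ptger2, Ptger3, Ptger4 and Ptgfr overlapped in each comparison. Over 6 ratios and 3 comparisons, 18 tests in all, the smallest Benjamini-Hochberg adjusted p of the exact permutation tests was 0.6, so none passed.

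**Figure D4:**
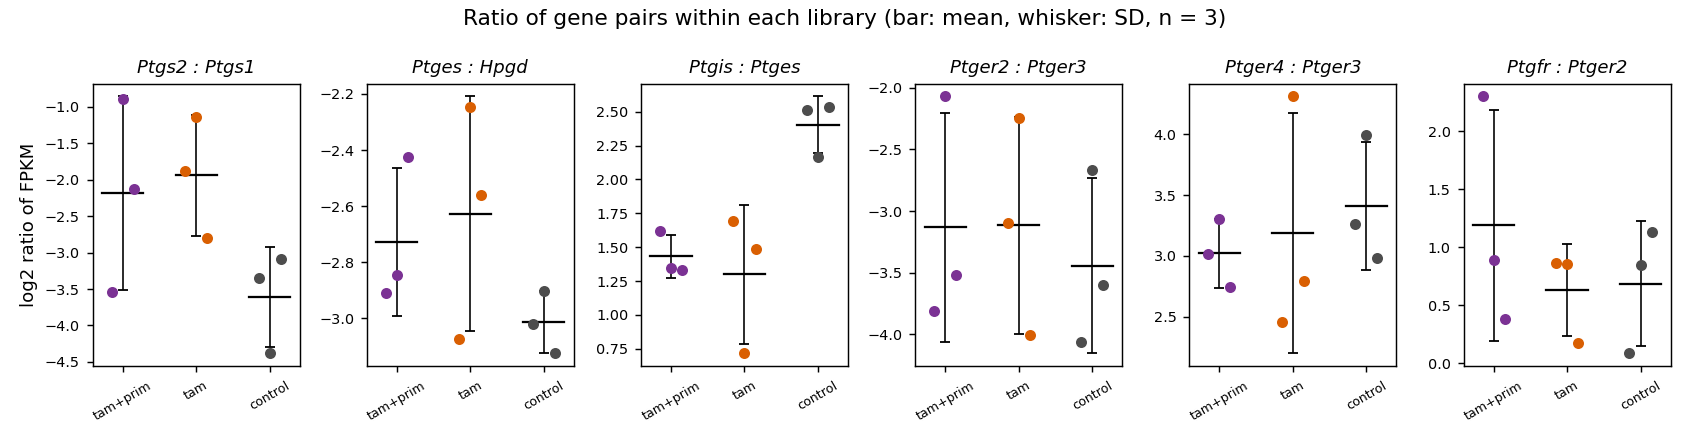
Log2 ratio of FPKM for pairs of genes (vertical axes) in each tamoxifen+primidone, tamoxifen and control library, with bars for means and whiskers for SDs of 3 libraries. For Ptgis over Ptges the 3 control libraries, at 2.17 to 2.53, lie above the 6 others, at 0.715 to 1.69.

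As a share of the summed FPKM of the prostaglandin E2 receptor genes Ptger1 to Ptger4, Ptger4 held 80.2 ± 0.551% in tamoxifen+primidone, 80.9 ± 5.35% in tamoxifen and 84.1 ± 3.97% in control uteri. Ptger3 held 10.0 ± 2.03% in tamoxifen+primidone, 9.92 ± 4.96% in tamoxifen and 8.16 ± 2.38% in control uteri. Ptger1, which encodes the calcium-linked receptor EP1, held 8.58 ± 2.23% in tamoxifen+primidone, 8.13 ± 0.142% in tamoxifen and 7.01 ± 1.63% in control uteri. Ptger2 held 1.23 ± 0.623% in tamoxifen+primidone, 1.09 ± 0.474% in tamoxifen and 0.747 ± 0.194% in control uteri. The ranges of the groups overlapped for each of the 4 genes, and Ptger4 was the main receptor RNA of the 4 in every library.

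Genes with the most similar pattern were sought for the 3 members with the smallest F test p, by Pearson r of log2 CPM over the 9 libraries among 11706 genes with at least 5 CPM on average. These r describe the libraries and carry no test, and since the libraries fall into groups, r also reflects the group means. For Ptger4 they were Arhgap24, a GTPase-activating protein, with r = 0.987, Cipc, a protein that binds the circadian factor CLOCK, with r = 0.98, and Nhsl1 with r = 0.977. For Ptges they were Dpy19l1 (r = 0.928), Usp48, a deubiquitinase (r = 0.919), and Srpk1, a kinase of splicing factors (r = 0.914). For Ptgis they were Slc6a17, a neutral amino acid transporter (r = 0.963), Tagln, a smooth muscle protein that is also on the muscle marker list (r = 0.957), and Gpx3, a secreted glutathione peroxidase (r = 0.954). A share of 0.965% of the searched genes reached r above 0.9 with Ptger4, 0.0769% with Ptges and 0.188% with Ptgis.

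The rest of the pathway was read from a list of 30 further genes for phospholipases, other synthases, reductases, transporters and receptors, of which 29 were tested. Of the 29, 1 passed upward and 0 downward by edgeR in tamoxifen+primidone against control, where 5.35% of all tested genes passed. That gene was Ptgr1, a prostaglandin reductase that inactivates prostaglandin and leukotriene intermediates, at 8.86 ± 0.897 CPM in tamoxifen+primidone and 4.37 ± 0.94 CPM in control uteri (log2 fold change 1.02 ± 0.20, edgeR adjusted p = 0.0212). Tamoxifen uteri had 5.39 ± 0.424 CPM of Ptgr1, the tamoxifen+primidone libraries all lay above the tamoxifen libraries (8.1 to 9.85 against 4.98 to 5.83 CPM), and the log2 fold change of this pair was 0.72 ± 0.20 (edgeR adjusted p = 0.175, DESeq2 adjusted p = 0.0193). The Ptgr1 call was lost without the first control library (edgeR adjusted p = 0.0871), the second control library (0.0658) or the second tamoxifen+primidone library (0.0533). In tamoxifen against control and in tamoxifen+primidone against tamoxifen, 0 of the 29 passed by edgeR, where 1.53% and 0.0132% of all tested genes passed. An unadjusted edgeR p under 0.05 was found for 4 of 29 (23.2% of all tested genes) in tamoxifen+primidone against control. The same held for 2 of 29 (17.8% of all tested genes) in tamoxifen against control and 4 of 29 (13.8%) in tamoxifen+primidone against tamoxifen. The medians over the 29 were −0.04, −0.07 and −0.03 on the log2 scale in tamoxifen+primidone against control, tamoxifen against control and tamoxifen+primidone against tamoxifen.

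Others of the 29, named by their F test, did not pass by edgeR. Ptges3, a cytosolic prostaglandin E synthase and chaperone partner, had 133.7 ± 35.4 CPM in tamoxifen+primidone and 94.6 ± 5.51 CPM in control uteri (edgeR adjusted p = 0.0896, DESeq2 adjusted p = 0.0271). Pla2g2e, a secreted phospholipase, had 27.7 ± 13.6 CPM in tamoxifen+primidone and 55.9 ± 8.98 CPM in tamoxifen uteri (edgeR adjusted p = 0.255, DESeq2 adjusted p = 0.0324). Slco2a1, the prostaglandin uptake transporter, had 47.9 ± 5.32 CPM in tamoxifen+primidone and 64.1 ± 12.6 CPM in tamoxifen uteri (edgeR adjusted p = 0.315, DESeq2 adjusted p = 0.203). Per length, averaged over the 3 groups, the highest of the list were Akr1c14, Akr1b3 and Ptges3, with Akr1b3, an aldose reductase that can form prostaglandin F2α, at 81.0 ± 9.42, 66.6 ± 2.83 and 72.0 ± 4.37 FPKM in tamoxifen+primidone, tamoxifen and control uteri.

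**Figure D5:**
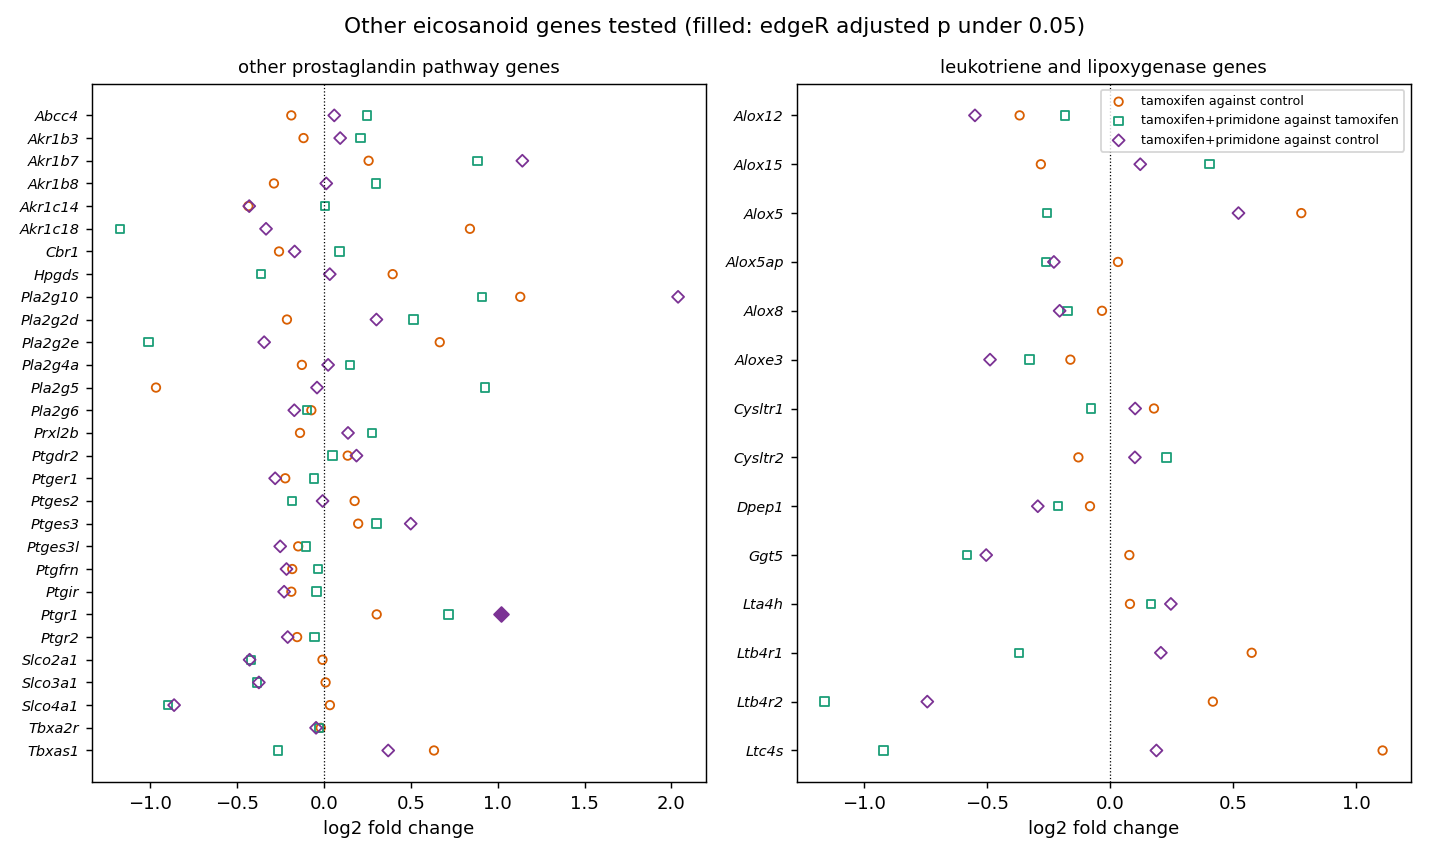
Log2 fold change (horizontal axes) of the 29 tested further prostaglandin genes and the 14 tested leukotriene and lipoxygenase genes, with a marker for each of the 3 comparisons; filled markers passed the edgeR test. Only Ptgr1 in tamoxifen+primidone against control is filled, at 1.02.

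Leukotrienes are made from the same arachidonic acid by lipoxygenases. Of 15 such genes 14 were tested, and 0 passed by edgeR in any comparison. Of all tested genes 5.35% passed in tamoxifen+primidone against control, 1.53% in tamoxifen against control and 0.0132% in tamoxifen+primidone against tamoxifen. In each comparison 2 of the 14 had an unadjusted p under 0.05. Of all tested genes 23.2% were under 0.05 in tamoxifen+primidone against control, 17.8% in tamoxifen against control and 13.8% in tamoxifen+primidone against tamoxifen. Ltc4s, which makes leukotriene C4, had 6.24 ± 2.61 CPM in tamoxifen+primidone, 11.8 ± 1.78 CPM in tamoxifen and 5.47 ± 1.32 CPM in control uteri. The tamoxifen libraries lay above both other groups (tamoxifen against control, log2 fold change 1.11 ± 0.29, edgeR adjusted p = 0.0893; tamoxifen+primidone against tamoxifen, −0.92 ± 0.29, adjusted p = 0.21). Both were past 0.05 by DESeq2, at adjusted p = 0.00562 and 0.0476. Ggt5, a peptidase that acts on leukotriene C4, had 51.4 ± 5.07 CPM in tamoxifen+primidone, 76.9 ± 14.6 CPM in tamoxifen and 72.8 ± 10.4 CPM in control uteri, with all tamoxifen+primidone libraries below the others (edgeR adjusted p = 0.161 against tamoxifen and 0.0788 against control; DESeq2 adjusted p = 0.0183 and 0.0253). Alox5, the lipoxygenase that starts leukotriene synthesis, and its partner Alox5ap did not pass by edgeR, nor did Lta4h, which makes leukotriene B4 and had 73.9 ± 3.13 CPM in tamoxifen+primidone and 62.2 ± 2.43 CPM in control uteri (edgeR adjusted p = 0.118, DESeq2 adjusted p = 0.0881).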

How the data were processed

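RNA sequencing counts of 9 uterus libraries were used, 3 in each of 3 groups taken from the labels. The authors deposited raw counts of reads for each gene symbol, and they also deposited FPKM values, scaled for library size and gene length. HISAT2, HTSeq, R 3.2.0, DESeq2 and build GRCm39 are named per the submitters' processing notes; not given in the sources used here: annotation, strand setting and other versions. Whether reads of a gene and of an antisense neighbour were told apart is therefore not known. Gene lengths recovered from counts and FPKM were whole within 0.01 for 99.97% of genes.

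The quasi-likelihood test of edgeR 4.0.16 in R 4.3.3 was applied to the counts (TMM, default low-count filter by group, robust), all 9 libraries in 1 fit, two-sided, with Benjamini-Hochberg adjustment over 15186 genes and a threshold of 0.05. SEs are the absolute log2 fold change over the square root of F, and 95% intervals use the fit's total degrees of freedom. CPM are counts over TMM-scaled library totals (unscaled, 36393120 to 39958443 counts), and the SD over 3 mice covers more than counting error. FPKM use the unscaled totals. The TMM factors were 1.018 to 1.050 in tamoxifen+primidone and 0.970 to 0.997 in tamoxifen and control libraries, so FPKM and CPM compare the groups on different scales. Ratios of FPKM were compared by exact permutation over mice. The procedure was tested on simulated data. Alternatives were DESeq2 1.42.0, limma 3.58.1 on log2(FPKM + 1) and log2(FPKM + 0.1), other scalings and filters, 2-group fits, a replicate block and leaving out each library. Replicates differed beyond counting noise (chi-square per degree of freedom 20.33 to 81.98), so none was counted as a repeat.

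All 10 genes are named, and from each further list the genes that passed, the 4 with the smallest F test p and the 3 highest in FPKM, beside the 3 most similar genes for each of 3 members; Alox5 and the others given by name follow this rule. Members and lists were chosen with earlier results of these data known. Same-numbered libraries were not paired by the labels.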

Additional observations from a re-analysis of the deposited data

How the results depend on the processing

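Of 741 recomputed fold changes of the named genes, 678 kept their direction and their side of the threshold, 25 newly passed it, 4 no longer passed and 34 turned round. Ptger4 in tamoxifen+primidone against control passed in 17 of 18 alternatives, with log2 fold changes of −0.71 to −0.573 when a library was left out. The 18 include leaving out each tamoxifen library, which enters this comparison only through the shared fit. The cause of the differences below was not tested.

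Genes passing in tamoxifen+primidone against control, tamoxifen against control and tamoxifen+primidone against tamoxifen were 812, 233 and 2. They were 1882, 1112 and 578 by DESeq2. In tamoxifen against control, 546 passed with the 2 groups alone in the fit, and 144 by limma on log2(FPKM + 1) without a filter. In tamoxifen+primidone against tamoxifen, 9 passed with RLE factors, 21 without the count filter, 1 by limma with either pseudocount and 0 without its filter. Of the 10 genes, in tamoxifen+primidone against control 3 passed by DESeq2 and 2 with the 2-group fit, where 624 of all genes passed. By limma 2 of the 10 passed there with either pseudocount, where 1011 of all genes passed at 1 and 982 at 0.1. In tamoxifen against control 3 of the 10 passed by DESeq2 and 1 with the 2-group fit. Without the count filter 1 of the 10 and 257 of all genes passed in that comparison. Without single libraries, 122 to 800, 22 to 439 and 0 to 85 genes passed, and 0 to 2, 0 to 1 and 0 to 0 of the 10.

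After group means were removed, same-numbered libraries of different groups correlated at −0.134 to 0.177. Differently numbered ones correlated at −0.291 to 0.158. These ranges overlap, and whether a number marks a shared batch was not tested. With a replicate block 984, 317 and 53 genes passed, with 2, 1 and 0 of the 10 (Ptgis against control, adjusted p = 0.0294 and 0.0268). The block put tamoxifen+primidone against tamoxifen at −0.00631 for Ptgs2 and −0.0342 for Ptger2 on the log2 scale.

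In tamoxifen+primidone against tamoxifen, limma put Ptges at 0.0397 and Ptger3 at 0.0406 with and without a filter at a pseudocount of 1, and Ptgs2 at −0.0595, Ptges at 0.0458 and Ptger3 at 0.086 at 0.1. Leaving out single libraries in this comparison gave Ptgs1 −0.0851 to 0.138, Ptgs2 −0.878 to 0.669, Ptges −0.161 to 0.144, Ptgis −0.00545 to 0.186, Hpgd −0.0244 to 0.199, Ptger2 −0.37 to 0.354 and Ptger3 −0.442 to 0.136. In tamoxifen against control it gave Ptgds −0.161 to 1.1, Ptger2 −0.256 to 0.254, Ptger3 −0.401 to 0.178 and Ptgfr −0.491 to 0.29, and in tamoxifen+primidone against control Ptger2 −0.304 to 0.336. Counts as low as 1 limit Ptgds, and 21 to 352 counts limit Ptgs2.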
